A study of Mus musculus with 32 samples.

Results

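The genes described here are the chemokine ligands other than those that build lymphoid tissue, taken as a list of 33 members by symbol. Of these, 32 had a row among the 32285 genes of the count table, and Cxcl11 was not analysed here. The counts came from bulk RNA sequencing of 32 whole bladders of female C57BL/6 mice, 1 bladder per library. The study compared ages and asked what a senolytic treatment, which is meant to remove senescent cells, does in old bladders. The untreated groups were young at 2 months (n = 6), middle-aged at 10 months (n = 5) and old at 26 months (n = 6). The 3 other groups were also 26 months old and had been gavaged on 3 days a month from 21 to 26 months of age, with water (n = 5), with vehicle, the drug carrier (n = 4), or with D+Q (n = 6), which is dasatinib at 5 mg/kg per day with quercetin at 50 mg/kg per day. All mice were female, and no genetic change is labelled in any group.

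Chemokines are small secreted proteins that bind G protein-coupled receptors on leukocytes and direct their movement. Inflammatory ligands are induced in macrophages, stromal cells and epithelium by signals such as TNF, interleukin 1 and interferon gamma, and recruit monocytes, neutrophils or effector T cells. Homeostatic ligands such as Cxcl12 and Cxcl14 are made without such induction and guide resident and circulating cells. Many of the inflammatory genes arose by tandem duplication and still lie side by side in the genome. In a whole bladder, more cells of a type and more RNA per cell cannot be told apart.

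Counts assigned to genes summed to between 15088372 and 52650259 per bladder, and 3 counts, taken as the floor of detection, corresponded to 0.0570 to 0.199 CPM (counts scaled to library size). CPM below are scaled with edgeR's TMM factors over all 6 groups, and log2 fold changes, standard errors (SE) and adjusted p-values are from edgeR's quasi-likelihood test with Benjamini-Hochberg adjustment over all genes tested in that comparison. A gene was called when the adjusted p was under 0.05. Some bladders stood apart within their group for these ligands. Of the 15 ligands that rose after middle age, untreated old replicate 3 had the highest value of its group for 15, and young replicate 2 for 12. Vehicle-treated old replicate 3 was the highest of its group for 12 of them and replicate 1 the lowest for 11. The summed macrophage markers stood at 1471 CPM in untreated old replicate 3 against 970 to 1242 CPM in the other 5 old bladders, and at 1250 CPM in young replicate 2 against 691 to 874 CPM in the other 5 young bladders. T cell markers were also highest in untreated old replicate 3, at 97.2 CPM, but not in young replicate 2. The summed neutrophil markers were highest in both, at 14.1 CPM in untreated old replicate 3 against 5.63 to 11.2 CPM and at 11.4 CPM in young replicate 2 against at most 4.69 CPM in the other 5 young bladders. The B cell markers were lowest of the old group in untreated old replicate 3, at 73.4 CPM against 91.0 to 225 CPM.

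Cxcl9 and Cxcl10, interferon-induced ligands of the T cell receptor Cxcr3, showed the largest and the fifth largest rise after middle age among the ligands. They are neighbours on chromosome 5, on the same strand, with Cxcl9 (ENSMUSG00000029417) at chr5:92321347-92328079 and Cxcl10 (ENSMUSG00000034855) at chr5:92346638-92348889 of mm10. Their RefSeq promoters, from 250 bases before to 50 after the start (GRCm38.p6, minus strand, chr5:92328030-92328329 and chr5:92348840-92349139), are shown because these 2 neighbours both rose. Not all neighbours did. Of the 7 ligands at chr5:90759360-90905938, 3 were tested after middle age and 0 were called. Capitals mark matches on either strand to the ISRE core, the interferon response letters GAAANNGAA, which lie farther from the start in both, and to the NF-kB consensus.
Cxcl9: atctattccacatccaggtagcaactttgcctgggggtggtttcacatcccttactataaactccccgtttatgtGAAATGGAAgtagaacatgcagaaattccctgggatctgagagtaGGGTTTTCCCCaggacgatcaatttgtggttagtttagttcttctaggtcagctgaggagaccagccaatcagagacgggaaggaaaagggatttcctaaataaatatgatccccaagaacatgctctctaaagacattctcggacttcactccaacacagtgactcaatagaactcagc
Cxcl10: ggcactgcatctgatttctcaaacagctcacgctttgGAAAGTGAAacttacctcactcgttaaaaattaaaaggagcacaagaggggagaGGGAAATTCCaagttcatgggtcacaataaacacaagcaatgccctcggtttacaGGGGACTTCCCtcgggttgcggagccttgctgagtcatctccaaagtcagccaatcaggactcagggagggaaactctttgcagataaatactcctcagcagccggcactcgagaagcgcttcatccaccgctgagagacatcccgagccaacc
No promoter was matched for Ccl2, Ccl4, Ccl5, Ccl7, Ccl11, Ccl24, Cxcl5, Cxcl16 or Cxcl17, so these were not searched. Promoters were matched for the other 23 of the 32 members. The ISRE core was in those of 5 members, against 8.56% of the 32851 mouse promoters in the table. Besides Cxcl9 and Cxcl10 these were Ccl1, Ccl3 and Cxcl14. NF-kB matches were in 11 members, but this short consensus was in 50.8% of all promoters. The GAS letters TTCNNNGAA were in 2 members, Ccl17 and Cxcl14, against 8.30% of all promoters. Matches to the different motifs were counted separately, and overlapping matches of 1 motif count that promoter once.

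In length-scaled levels (TPM, transcripts scaled to length and library size), Cxcl14 and Cxcl12 together made up 71.1 to 78.2% of the summed ligand TPM in the 5 middle-aged bladders, and a median of 64.3% (44.3 to 66.7%) in the untreated old bladders. In middle-aged bladders Cxcl14 was highest at 774 ± 122 TPM (SD, n = 5), then Cxcl12 at 135 ± 10.1 TPM, then Pf4, platelet factor 4, at 68.4 ± 8.25 TPM. These 3 did not overlap one another. Ccl8 at 35.2 to 53.8 TPM, Ccl6 at 35.0 to 47.9 TPM and Cx3cl1 at 30.2 to 39.7 TPM followed and overlapped, so their order is not set by these bladders. In untreated old bladders, Ccl8 had a median of 207 TPM (129 to 866 TPM), which overlapped Cxcl12 at 143 to 161 TPM. The 6 platelet and megakaryocyte markers summed to 8.07 to 8.78 CPM in middle-aged bladders, below Pf4 alone at 11.2 to 15.4 CPM. CPM is not scaled to gene length, and which cells made the Pf4 RNA was not tested.

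**Figure D1:**
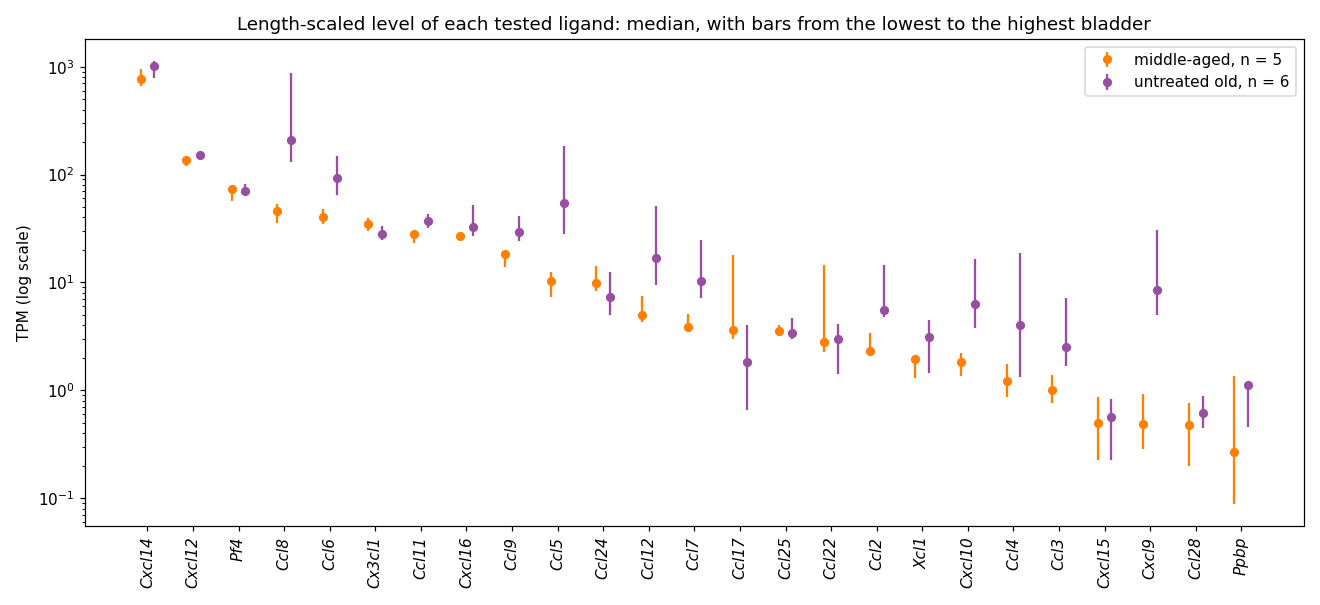
Length-scaled level of 25 ligands in middle-aged (orange) and untreated old (purple) bladders, in TPM on a log scale, ordered by the middle-aged median. Points are medians and bars run from the lowest to the highest bladder. Cxcl14 is at the top in both groups, and the old points of Ccl8, Ccl5 and Cxcl9 lie above their middle-aged bars.

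Between 10 and 26 months without treatment, most detectable inflammatory ligands rose. Of 25 ligands tested, 15 rose without treatment between these ages, where 13.0% of all 17156 genes tested did, and 2 fell, where 11.0% did. The median log2 fold change of the 25 was 0.87, against -0.0047 over all genes tested. Of 24 ligands with a mean of at least 10 counts, 11 were higher in every old than in every middle-aged bladder, against 8.55% of all genes with such counts, and none was lower in every old bladder (6.09% of all genes). The lists of ligands were chosen with earlier results of these samples known, so these counts describe them and do not test them as a set.

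Cxcl9 stood at 0.359, 0.570, 0.794, 0.250 and 0.407 CPM in middle-aged replicates 1 to 5, and at 4.37 CPM in the lowest, a median of 7.93 CPM and 26.7 CPM in the highest untreated old bladder. The lowest old bladder was above every middle-aged bladder. Its log2 fold change was 4.62 ± 0.62 (SE), or 24.6-fold, with an adjusted p of 0.000201 by edgeR. Without old replicate 3 the log2 fold change was 4.21. Cxcl10 stood at 1.44, 1.14, 1.34, 0.887 and 1.11 CPM in middle-aged bladders and at 2.45 to 10.7 CPM (median 4.19) in old bladders, again without overlap. It was 4.12-fold higher, with a log2 fold change of 2.04 ± 0.37 and an adjusted p of 0.00158 by edgeR. The gene Art3 overlaps Cxcl10 on the other strand, and since the strandedness of the counting is not stated, reads of the pair may not be separated.

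Ccl3, Ccl4 and Ccl5, which attract T cells and monocytes, rose together with their neighbours on chromosome 11. Ccl5 (ENSMUSG00000035042, chr11:83525778-83530518) stood at 2.80, 3.26, 2.22, 2.86 and 1.98 CPM in middle-aged bladders and at 7.80 to 50.9 CPM (median 15.8) in old bladders. The groups did not overlap. The log2 fold change was 2.94 ± 0.47 with an adjusted p of 0.00067 by edgeR, and 2.43 without old replicate 3. Ccl4 (ENSMUSG00000018930, chr11:83662584-83664683) stood at 0.228, 0.222, 0.328, 0.166 and 0.244 CPM in middle-aged bladders. Its old values ran from 0.255 to 3.51 CPM (median 0.819), and 5 of 6 were above the highest middle-aged bladder. The fitted change was 2.31 ± 0.63 (log2) with an adjusted p of 0.0185 by edgeR, but 1.67 (adjusted p = 0.0188) without old replicate 3. Ccl3 (ENSMUSG00000000982, chr11:83647844-83649355) stood at 0.228, 0.190, 0.219, 0.305 and 0.163 CPM, or 6 to 11 counts, in middle-aged bladders. It stood at 0.369 to 1.58 CPM (median 0.588) in old bladders. It was 3.49-fold higher, with a log2 fold change of 1.80 ± 0.44 and an adjusted p of 0.00985 by edgeR.

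Ccl6 and Ccl9, rodent ligands of Ccr1, lie between these genes and rose less. Ccl6 (ENSMUSG00000018927, chr11:83587882-83593087) stood at 24.6, 23.0, 20.1, 18.1 and 20.3 CPM in middle-aged bladders and at 33.3 to 76.5 CPM (median 47.2) in old bladders. Ccl9 (ENSMUSG00000019122, chr11:83572919-83578636) stood at 17.2, 15.8, 12.6, 12.1 and 15.5 CPM and at 21.4 to 36.1 CPM (median 26.7). Neither overlapped between the ages. The log2 fold changes were 1.26 ± 0.20 for Ccl6 (adjusted p = 0.000726 by edgeR) and 0.90 ± 0.15 for Ccl9 (adjusted p = 0.000796). E230016K23Rik overlaps Ccl6 on the other strand.

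In the other group of neighbours on chromosome 11, between 82035571 and 82305690, 5 of 5 tested ligands rose. Ccl2, Ccl7 and Ccl12 are monocyte chemoattractants that signal through Ccr2, and Ccl8 is their relative by sequence. Ccl8 (ENSMUSG00000009185, chr11:82115185-82116799) stood at 7.86, 6.53, 5.15, 5.18 and 6.57 CPM in middle-aged bladders and at 18.5 to 127 CPM (median 30.6) in old bladders, without overlap. In log2 terms the change was 2.91 ± 0.48, or 7.51-fold, with an adjusted p of 0.000879 by edgeR. It was 2.31 without old replicate 3. Ccl12 (ENSMUSG00000035352, chr11:82101845-82103400) stood at 1.14, 0.634, 1.15, 0.776 and 0.733 CPM and at 1.48 to 7.89 CPM (median 2.57), for a log2 fold change of 1.90 ± 0.40 with an adjusted p of 0.00441 by edgeR.

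Ccl7 (ENSMUSG00000035373, chr11:82045712-82047525) stood at 1.17, 0.792, 1.07, 0.860 and 0.868 CPM in middle-aged and 1.61 to 5.63 CPM (median 2.38) in old bladders. Ccl2 (ENSMUSG00000035385, chr11:82035571-82037453) stood at 1.11, 0.697, 0.903, 0.721 and 0.733 CPM and at 1.57 to 4.70 CPM (median 1.93). These 2 were 2.93-fold and 2.78-fold higher, with log2 fold changes of 1.55 ± 0.30 and 1.47 ± 0.30 and adjusted p of 0.00233 and 0.00343 by edgeR. Ccl11, the eosinophil attractant eotaxin, changed less, from 8.68, 7.19, 8.84, 9.26 and 7.06 CPM to 9.98 to 13.3 CPM (median 11.8), a log2 fold change of 0.54 ± 0.09 with an adjusted p of 0.00137 by edgeR. How reads shared between these related genes were counted is not given in the sources used here, and Gm17268 overlaps Ccl2 on the other strand.

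**Figure D2:**
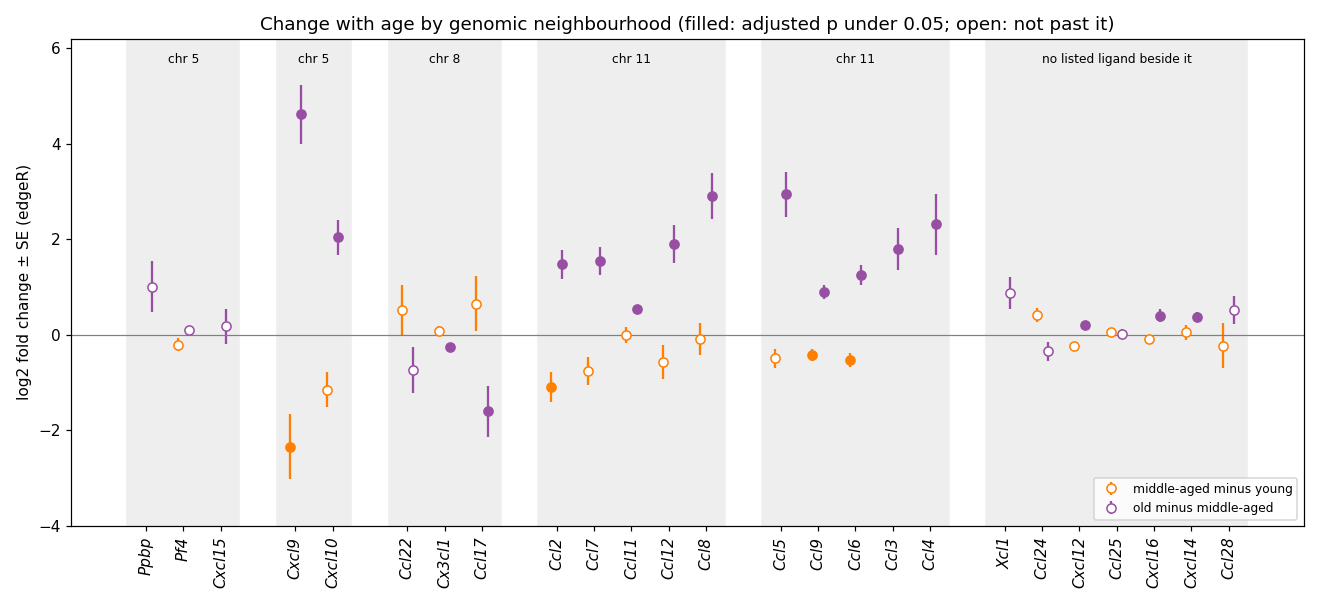
edgeR log2 fold change ± SE from young to middle-aged (orange, 20 ligands tested) and from middle-aged to untreated old bladders (purple, 25 tested), grouped by genes that lie within 500000 bases of each other. Ligands without an orange point were not tested between the younger ages. Filled points passed an adjusted p of 0.05. The 10 tested ligands of the chromosome 11 groups and both of the Cxcl9 and Cxcl10 group have filled purple points above 0.

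The homeostatic and membrane-bound ligands moved little. Cxcl12, which retains and guides cells through Cxcr4, stood at 317, 313, 344, 284 and 304 CPM in middle-aged bladders and at 343 to 377 CPM (median 358) in old bladders. This was 1.15-fold, or 0.21 ± 0.05 in log2, with an adjusted p of 0.00535 by edgeR. Cxcl14, an epithelial and stromal ligand, stood at 403, 477, 346, 434 and 335 CPM and at 418 to 591 CPM (median 536). The groups overlapped, and its log2 fold change was 0.38 ± 0.11 with an adjusted p of 0.0226 by edgeR. It missed the threshold without middle-aged replicate 3 (adjusted p = 0.0622) or 5 (adjusted p = 0.0613).

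Cxcl16, the membrane-bound ligand of Cxcr6, stood at 23.1, 22.4, 22.8, 24.4 and 22.6 CPM in middle-aged and at 23.8 to 45.4 CPM (median 28.2) in old bladders. The groups overlapped, and Zmynd15 overlaps the gene on the other strand. The log2 fold change was 0.40 ± 0.13 with an adjusted p of 0.043 by edgeR. It missed the threshold without any of the 5 middle-aged bladders or without old replicate 1 or 6 (adjusted p = 0.0512 to 0.0869), and was 0.26 (adjusted p = 0.0118) without old replicate 3. Cx3cl1, or fractalkine, which binds Cx3cr1 on monocytes and macrophages, was lower. It stood at 34.0, 36.0, 42.6, 44.9 and 38.6 CPM in middle-aged and at 30.4 to 37.9 CPM (median 32.2) in old bladders, with overlap. The difference was -0.26 ± 0.08 in log2 with an adjusted p of 0.0271 by edgeR, and it missed the threshold without middle-aged replicate 3 or 4 or old replicate 1, 3 or 6 (adjusted p = 0.0503 to 0.0681).

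Ccl17 and Ccl22, ligands of Ccr4 on regulatory and type 2 helper T cells, flank Cx3cl1 on chromosome 8. Ccl17 (ENSMUSG00000031780, chr8:94810453-94812036) stood at 2.64, 0.507, 0.438, 0.776 and 0.516 CPM in middle-aged bladders and at 0.0966 to 0.595 CPM (median 0.271) in old bladders. The value of 0.0966 CPM was 3 counts, at the floor. The change was -1.60 ± 0.53 in log2 with an adjusted p of 0.0457 by edgeR, and this rests on middle-aged replicate 1. Without that bladder the log2 fold change was -0.83 with an adjusted p of 0.144. The adjusted p was also above 0.05 without middle-aged replicate 4 or old replicate 1, 2, 3, 5 or 6. The same middle-aged bladder held 9.72 CPM of Ccl22, against 1.81, 1.53, 2.74 and 1.47 CPM in the other 4, and Ccl22 did not pass the test (log2 fold change -0.73 ± 0.48, adjusted p = 0.303 by edgeR). Without that bladder Ccl22 was at 0.12.

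Of the other 7 ligands tested, none passed by edgeR, and at an unadjusted p under 0.05 there was 1. This was Xcl1, a lymphocyte product, at 0.87 ± 0.33 (adjusted p = 0.0753). The eosinophil ligand Ccl24 was at -0.35 ± 0.20, the mucosal ligands Ccl25 and Ccl28 at 0.02 ± 0.10 and 0.52 ± 0.29, Cxcl15 at 0.18 ± 0.37, Pf4 at 0.10 ± 0.09 and Ppbp, the other platelet ligand, at 1.01 ± 0.53, all as log2 fold change ± SE. Gm20743 overlaps Xcl1 and Elavl1 overlaps Ccl25, both on the other strand. The neutrophil ligands were at or near the floor in whole bladders. Cxcl3 and the T cell product Ccl1 had at most 3 counts in each of the 32 bladders. Cxcl1, Cxcl2, Cxcl5, Cxcl17 and Ccl20 reached at most 18, 9, 7, 5 and 6 counts, and were left out of the test between these ages as too low. With the low-count filter dropped, none of these 7 passed by edgeR, and Cxcl1 had the smallest p, at a log2 fold change of 1.17 (adjusted p = 0.0713). Cxcl1 stood at 6 to 14 counts in the 6 old bladders and at 1 to 6 counts in the 5 middle-aged bladders.

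Markers of leukocytes moved with the ligands. Between middle-aged and untreated old bladders, 7 of 7 T cell markers, 6 of 6 B cell markers and 9 of 10 macrophage markers were higher, with median log2 fold changes of 2.51, 4.46 and 0.57. The summed T cell markers ran from 11.2 to 14.7 CPM in middle-aged and from 42.6 to 97.2 CPM in old bladders, and the summed macrophage markers from 680 to 806 CPM and from 970 to 1471 CPM. No gene of these 3 lists was at the floor in every bladder of either group. Of 7 cytotoxic lymphocyte markers 2 were higher. Of 6 neutrophil markers 1 of 1 tested was higher, with Ly6g at or under the floor in both ages, and of 4 eosinophil markers 1 of 1 tested was higher, with Epx and Ear1 at or under it in both ages. In the tissue itself, 3 of 6 urothelial, 1 of 5 smooth muscle and 1 of 4 fibroblast markers were lower, with log2 fold changes between -0.41 and 0.15. Of 4 endothelial markers 1 was lower and 1, Vwf, was higher at 0.32 ± 0.06 (adjusted p = 0.00319 by edgeR), and of 5 dendritic cell markers 2 were higher. The part of these cells in the ligand changes was not tested.

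Most tested receptors for these ligands rose as well. Of the 16 classical chemokine receptors listed, 12 were tested and 9 were higher, with a median log2 fold change of 1.23. The largest were Ccr6, the receptor of Ccl20, at 3.26 ± 0.65 (adjusted p = 0.00306), Cxcr3, the receptor of Cxcl9 and Cxcl10, at 2.01 ± 0.20 (adjusted p = 2.44e-05), and Cxcr4 at 1.67 ± 0.18 (adjusted p = 4.43e-05, all by edgeR). Cxcr3 ran from 1.52 to 2.09 CPM in middle-aged and from 4.62 to 10.8 CPM in old bladders. Ccr2 was at 0.53 ± 0.16 (adjusted p = 0.0291 by edgeR), while Cx3cr1, at 0.23 ± 0.15, did not pass (adjusted p = 0.289). Cxcr2, the neutrophil receptor, was not tested, at 4 to 15 counts per bladder of these ages.

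Atypical receptors, which bind chemokines without classical signaling, were higher for 3 of 5, Ackr2 at 0.96 ± 0.13, Ackr4 at 0.76 ± 0.18 and Ackr1 at 0.34 ± 0.11 (adjusted p = 0.000176, 0.0103 and 0.0432 by edgeR). Ackr3, the scavenger of Cxcl12, was at -0.07 ± 0.07 (adjusted p = 0.567). Of 8 cytokines that induce ligands, 4 were tested and 2 were higher, Tnf at 1.55 ± 0.24 (adjusted p = 0.000557) and Il1b, which was 2.84-fold higher (adjusted p = 0.022). None of the 3 proteases that cut chemokines passed the test by edgeR, at log2 fold changes between -0.02 and 0.27, and 1 had an unadjusted p under 0.05, Dpp4 at 0.27 ± 0.10.

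From 2 to 10 months, 13 ligands had a lower fitted level and 7 a higher one. Of 20 ligands tested, 4 were lower in middle-aged than in young bladders, where 5.85% of all 16754 genes tested were lower. No ligand was higher by edgeR or DESeq2, where 4.96% of genes were by edgeR, and at an unadjusted p under 0.05 there was 1, Ccl24, at 0.42 ± 0.14. Ccl24 was also the 1 ligand of 22 with a mean of at least 10 counts that was higher in every middle-aged bladder (3.04 to 5.25 CPM) than in every young bladder (2.60 to 3.00 CPM), against 3.41% of all genes, and none was lower in every middle-aged bladder, against 3.6%. The median log2 fold change of the 20 was -0.21, against 0.0028 over all genes tested. Cxcl9 ranged from 0.0682 to 4.57 CPM (median 2.71) in young bladders, and 4 of the 6 young bladders were above the highest middle-aged value of 0.794 CPM, with the other 2 at 0.0682 and 0.233 CPM. The value of 0.0682 CPM was 1 count, under the floor. The log2 fold change was -2.34 ± 0.69 with an adjusted p of 0.046 by edgeR. Ccl2 ran from 0.721 to 3.22 CPM (median 1.71), Ccl6 from 20.4 to 41.1 CPM (median 31.0) and Ccl9 from 14.0 to 23.9 CPM (median 19.6) in young bladders, and all 3 overlapped the middle-aged values given above. Their log2 fold changes were -1.09 ± 0.31, -0.53 ± 0.14 and -0.42 ± 0.13, with adjusted p of 0.0398, 0.0295 and 0.0488 by edgeR.

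These 4 calls are close to the threshold. With 1 bladder left out, there were no ligands called without young replicate 1 or 6 or middle-aged replicate 2, 3, 4 or 5, 1 without young replicate 2 or middle-aged replicate 1, 2 without young replicate 3, and 6 without young replicate 4. Cxcl9 and Ccl2 were at -2.04 and -0.81 without young replicate 2, and all 4 kept their sign in each of these fits. The macrophage markers gave 0 of 10 called lower by edgeR between these ages, with a median log2 fold change of -0.23, and the T cell markers 0 of 7. Of other lists, 1 of 7 cytotoxic lymphocyte, 2 of 4 fibroblast and 2 of 4 endothelial markers were lower, and 2 of 5 tested B cell markers and 1 of 5 dendritic cell markers were higher. Their part was not tested.

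Over the whole span, 8 of 23 ligands tested were higher in untreated old than in young bladders, where 12.6% of all genes tested were higher. None was lower by edgeR or DESeq2, where 12.4% of genes were by edgeR, and at an unadjusted p under 0.05 there was 1, Cx3cl1, at -0.18 ± 0.08. Ccl8 at 2.79 ± 0.51 (adjusted p = 0.00135) and Ccl5 at 2.44 ± 0.43 (adjusted p = 0.000979, both by edgeR) changed most. These 2 were higher in every old than in every young bladder, with young ranges of 2.66 to 11.4 CPM and 2.52 to 4.87 CPM, where 7.03% of all genes were higher in every old bladder. None of the 23 ligands with a mean of at least 10 counts was lower in every old bladder, against 5.93%. In log2, Cxcl9 was at 2.26 ± 0.68, Ccl4 at 2.21 ± 0.77, Ccl12 at 1.31 ± 0.43, Ccl6 at 0.72 ± 0.21, Ccl11 at 0.53 ± 0.15 and Ccl9 at 0.47 ± 0.15. Ccl4 was at or under the floor in 4 of 6 young bladders and passed narrowly (adjusted p = 0.04996 by edgeR). With 1 bladder left out, its call was lost in 9 of the fits (adjusted p = 0.0503 to 0.127 by edgeR). The calls of Ccl5, Ccl8, Ccl6 and Ccl11 held with each bladder left out in turn. The number called was 4 without old replicate 3 and 5 without old replicate 6 or young replicate 1, 4 or 5. Ccl4 was at 3.67 without young replicate 2 and Ccl12 at 0.86 (adjusted p = 0.0942) without old replicate 3. Between these ages 7 of 7 T cell, 6 of 6 B cell and 3 of 10 macrophage markers were higher, while 2 of 7 cytotoxic lymphocyte, 3 of 4 fibroblast and 3 of 4 endothelial markers were lower. The part of these cells was not tested.

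Whether the 2 changes with age differed was tested as the change after 10 months minus the change before it. A positive difference does not require a fall before 10 months. By edgeR, 10 of 25 ligands had a positive difference, where 7.17% of all 17376 genes tested did, and none a negative one, where 3.67% did. At an unadjusted p under 0.05, 3 were negative, Ccl17, Ccl24 and Cx3cl1, and DESeq2 also called none negative. Cxcl9 differed most at 6.98 ± 1.44 on the log2 scale (adjusted p = 0.00744), followed by Ccl5 at 3.46 ± 0.75 (adjusted p = 0.00952) and Cxcl10 at 3.21 ± 0.78 (adjusted p = 0.016). Ccl8 was at 3.03 ± 0.87 (adjusted p = 0.0334), with similar young and middle-aged medians of 6.56 and 6.53 CPM. The middle-aged bladders enter this difference with a double weight, and the number called was 4 without middle-aged replicate 5 and 6 without replicate 2.

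**Figure D3:**
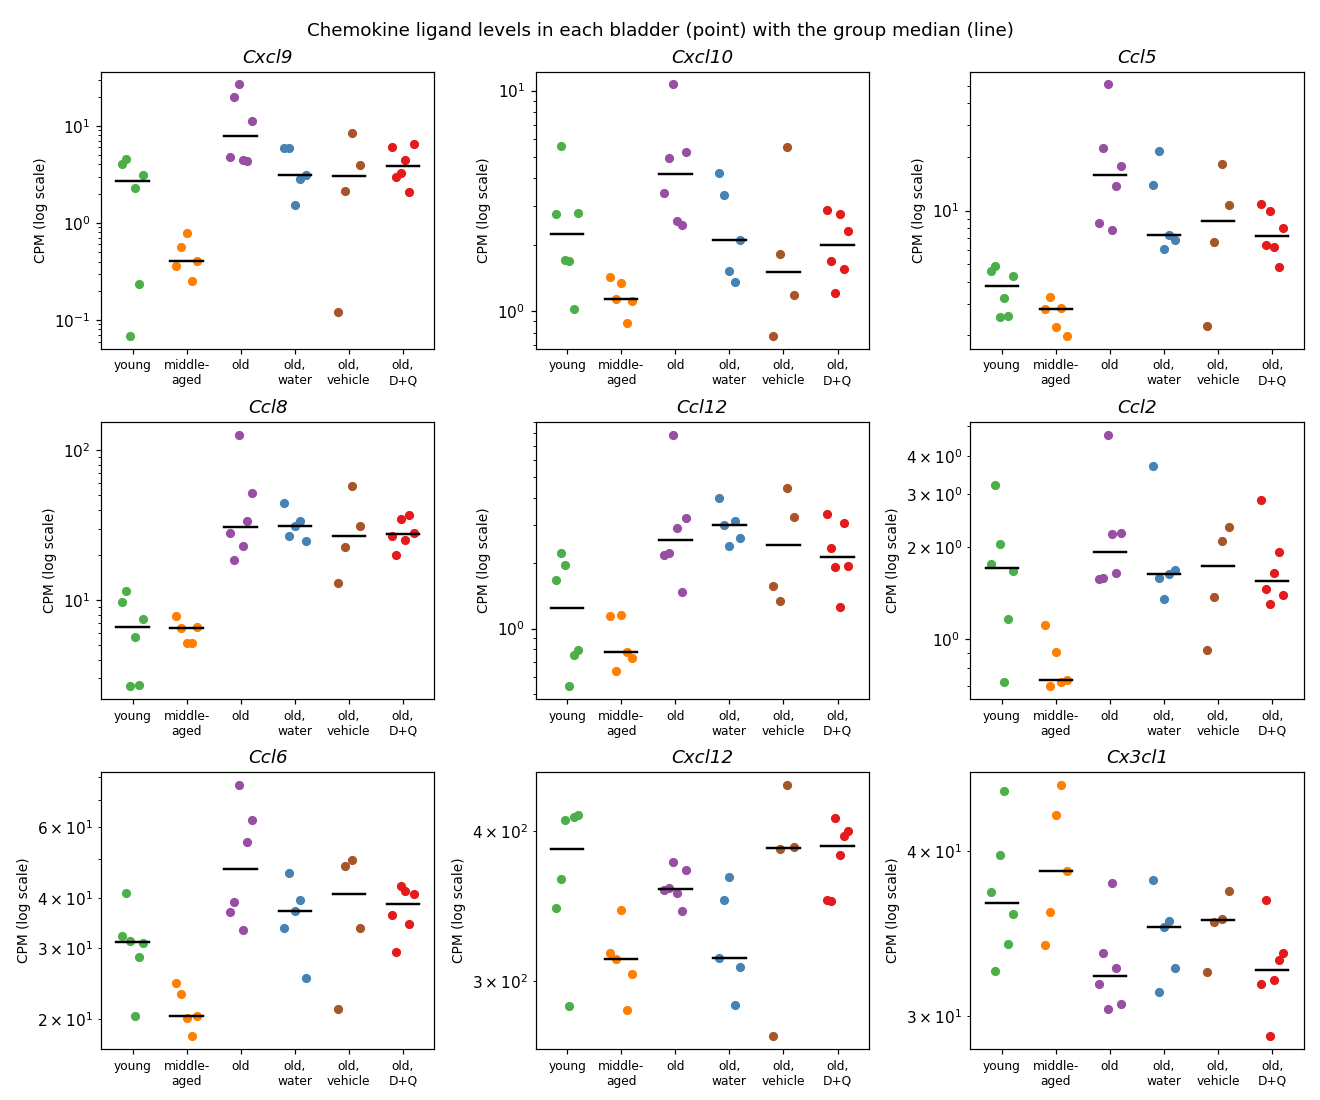
CPM on a log scale of 9 ligands in each of the 32 bladders (points), by group, with the group median (line). For Cxcl9, Cxcl10, Ccl5, Ccl8, Ccl12, Ccl2 and Ccl6 every untreated old bladder lies above every middle-aged bladder, and most gavaged old bladders do too.

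In most of the 15 gavaged old bladders the inflammatory ligands stayed above the middle-aged range. The share of all genes that did so was not counted, so the counts below describe the ligands alone. Ccl8 and Ccl12 were above the highest middle-aged bladder in 15 of 15. Ccl2, Ccl5, Ccl6 and Cxcl9 were above it in 14 of 15, and Ccl3 and Ccl7 in 13. Ccl9 and Ccl11 were above it in 12, Cxcl10 in 11 and Ccl4 in 10 of 15. Outside these inflammatory ligands, Cxcl16 was above it in 14, Cxcl14 in 13 and Cxcl12 in 11 of 15. Pf4, which did not pass the test between middle-aged and untreated old bladders, was above it in 12. The remaining ligands tested between those ages were above it in 0 to 9 of 15. Such counts are therefore not particular to the ligands that rose. With vehicle, Ccl4 was above the highest middle-aged bladder in 1 of 4 bladders. With water, Ccl9 was above it in 3 and Ccl11 in 2 of 5. The bladder under the middle-aged maximum for Cxcl9, Ccl5, Ccl6 and Ccl2 was vehicle-treated replicate 1, with 0.120 CPM of Cxcl9, under the lowest middle-aged value of 0.250 CPM, and 2.26 CPM of Ccl5. That bladder also had the lowest summed T cell markers of its group, at 14.7 CPM against 32.3 to 89.3 CPM in the other 3.

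With D+Q against untreated old bladders, no ligand passed the test by edgeR, as no gene did (0.0% of 17037). By DESeq2 1 ligand did, Cxcl10, where 1.12% of genes did. Of the 25 ligands tested, 6 had an unadjusted p under 0.05, where 12.9% of all genes tested did, and 18 had a lower fitted level with D+Q. All 25 with a mean of at least 10 counts overlapped between the groups, where 0.238% of all genes were higher and 0.354% lower in every D+Q bladder. Cxcl10 stood at 1.20 to 2.87 CPM (median 1.99) with D+Q and at 2.45 to 10.7 CPM (median 4.19) without treatment, so that the top of the treated range lay within the untreated range. Its log2 fold change was -1.23 ± 0.35 with an adjusted p of 0.269 by edgeR and 0.0274 by DESeq2. Without untreated old replicate 3 it was -0.85, with an adjusted p of 0.389 by edgeR.

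Ccl5 stood at 4.85 to 10.9 CPM (median 7.22) with D+Q, for a log2 fold change of -1.38 ± 0.41 (adjusted p = 0.278 by edgeR). Cxcl9 stood at 2.06 to 6.51 CPM (median 3.87), for -1.47 ± 0.48 (adjusted p = 0.294 by edgeR). Ccl4 stood at 0.166 to 0.719 CPM (median 0.387), for -1.43 ± 0.56 (adjusted p = 0.342 by edgeR). Pf4 went the other way, at 15.2 to 21.3 CPM (median 16.8) against 13.4 to 16.9 CPM, for 0.22 ± 0.09 (adjusted p = 0.337 by edgeR). Without untreated old replicate 3, Ccl5 was at -0.87, Cxcl9 at -1.06 and Ccl4 at -0.78, and each was less negative than with it. The summed T cell markers were 26.2 to 48.6 CPM with D+Q, and their part was not tested.

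Gavage without the drugs gave differences of like size, and the 3 comparisons share the untreated old bladders. With water, no ligand passed by edgeR or DESeq2, where 1.0% of 17250 genes did by edgeR, and 4 of 25 had an unadjusted p under 0.05, no more than the 16.0% of all genes that did. Cxcl9 stood at 5.87, 5.91, 1.55, 2.80 and 3.14 CPM in water-treated replicates 1 to 5, for a log2 fold change of -1.63 ± 0.55 (adjusted p = 0.182 by edgeR). Cxcl10 stood at 4.23, 3.37, 1.52, 1.35 and 2.11 CPM, for -0.97 ± 0.42 (adjusted p = 0.287). Ccl11 stood at 7.14, 8.32, 9.25, 11.5 and 12.3 CPM, for -0.29 ± 0.13 (adjusted p = 0.304). The other 2 of the 5 smallest p were Cxcl12 at -0.15 ± 0.06 and Ccl9 at -0.40 ± 0.18.

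With vehicle, no ligand and no gene passed by edgeR (0.0% of 17440), no ligand passed by DESeq2, and 2 of 25 ligands had an unadjusted p under 0.05, where 8.39% of all genes did. Ccl4 stood at 0.169, 0.215, 0.511 and 0.0952 CPM, for -2.20 ± 0.76 (adjusted p = 0.511). The value of 0.0952 CPM was 2 counts, under the floor. Cxcl9 stood at 0.120, 2.15, 8.47 and 3.95 CPM, for -1.69 ± 0.86 (adjusted p = 0.619), and at -1.27 without replicate 1. Ccl5 stood at 2.26, 6.68, 18.2 and 10.7 CPM, for -1.10 ± 0.63 (adjusted p = 0.639). Replicate 1 was lowest and replicate 3 highest for both Cxcl9 and Ccl5. Cxcl10 was at -1.04 ± 0.58, and Pf4, at 13.7 to 23.5 CPM, was at 0.29 ± 0.13, all by edgeR.

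D+Q was not told apart from either gavage control. Against vehicle, no ligand and no gene passed by edgeR (0.0% of 17267), no ligand passed by DESeq2, and no ligand had an unadjusted p under 0.05, where 4.18% of all genes tested did. The smallest unadjusted p belonged to Ppbp at 1.29 ± 0.74, Cx3cl1 at -0.11 ± 0.07, Ccl22 at -0.58 ± 0.37, Ccl4 at 0.75 ± 0.49 and Ccl11 at -0.13 ± 0.10. Against water, no ligand and no gene passed by edgeR (0.0% of 17161), no ligand passed by DESeq2, and 2 of 26 ligands had an unadjusted p under 0.05, where 7.82% of all genes did. The smallest belonged to Cxcl12 at 0.23 ± 0.07, Cxcl15 at 0.71 ± 0.31, Ccl11 at 0.23 ± 0.13, Cxcl14 at 0.12 ± 0.07 and Ccl12 at -0.39 ± 0.23. Cxcl12 stood at 350 to 411 CPM with D+Q and at 287 to 366 CPM with water, with overlap. These standard errors leave room for differences in either direction, so they do not show that the groups were alike.

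**Figure D4:**
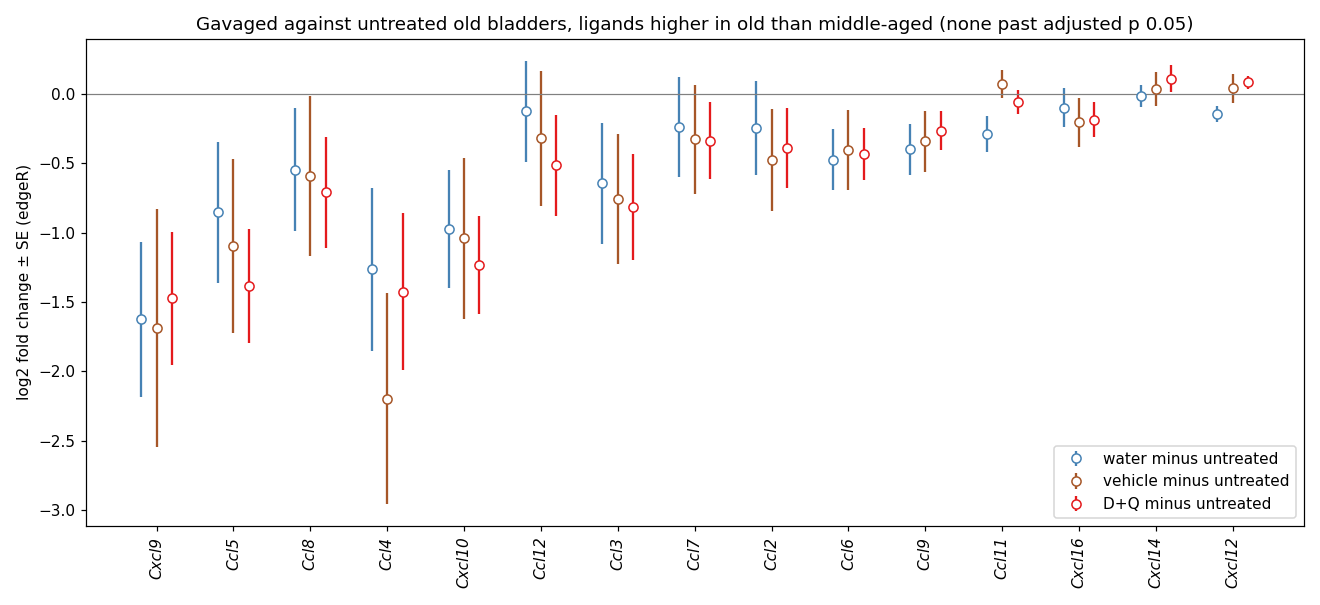
edgeR log2 fold change ± SE of gavaged against untreated old bladders for the 15 ligands that rose after middle age without treatment, for water (blue), vehicle (brown) and D+Q (red). All points are open because none passed an adjusted p of 0.05. Most lie below 0 in all 3 comparisons, which share the untreated old bladders. The 15 ligands were picked as high in those same bladders, which by itself pulls such points below 0. Their direction is therefore not a test of gavage.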

How the data were processed

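Total RNA of 32 whole bladders was sequenced from stranded libraries. Alignment by the authors was to mm10 with STAR 2.7.3, and they deposited raw counts per gene made with featureCounts (Subread), which were used here as deposited, with the gene length that the authors deposited beside them as the other unit. The second deposited table, of log2 length-scaled values, was not used. The strandedness of counting is not given in the sources used here.

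Groups follow the labelled age and treatment. No batch is given in the labels, and none was modelled. Counts were compared with edgeR 4.0.16 (R 4.3.3; TMM, filterByExpr, quasi-likelihood test, Benjamini-Hochberg adjustment, threshold 0.05). There were 9 comparisons, 8 of 2 groups and 1 of the late minus the early change with age, each fitted on its own groups. The fits were first run on simulated data, with the same variation for every gene and changes placed only in well-counted genes. That run does not cover ligands with low counts or a wide spread. CPM used TMM factors, and TPM the deposited lengths. Sequences are from RefSeq (GRCm38.p6). Alternatives were DESeq2 1.42.0, RLE factors, dropping the low-count filter, a minimum of 10 counts per bladder, a replicate block, all 6 groups in 1 fit and each bladder left out.

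Values by bladder, or the lowest, median and highest in groups of 6, were given for ligands past the threshold between consecutive ages, at most the 12 with the largest change, and for most of the 5 smallest p in gavage comparisons without calls, the others by their fold change alone. Of other lists, the 3 largest called changes and a few fixed receptors were named, of which 1 is not reported here. The values of Ccl11, Cxcl12, Cxcl14, Cxcl16 and Cx3cl1 lie outside the first 12 and were added after they were seen. The members and lists were chosen with earlier results of these data known. Counting intervals cover counting error only.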

Additional observations from a re-analysis of the deposited data

Results flagged for a closer look

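In 156 groups of values of the tested ligands, 6 single bladders lay far from the rest of their group on the log2 scale, where about 1 in 20 groups would be expected by chance. Ccl2 was at 4.70 CPM in untreated old replicate 3 against 1.57 to 2.23 CPM in the other 5, and at 3.70 CPM in water-treated replicate 1 against 1.35 to 1.68 CPM in the other 4. Ccl3 was at 2.30 CPM in young replicate 2 against 0.0582 to 0.273 CPM, and at or under the floor in 3 of the 6 young bladders. Ccl9 was at 12.1 CPM in vehicle-treated replicate 1 against 22.8 to 25.9 CPM. Ccl17 had 0.0 CPM in young replicate 3 against 0.411 to 1.16 CPM, and Ccl28 had 0.0 CPM in young replicate 4 against 0.556 to 1.08 CPM.

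The change after 10 months differed from the change before it, by edgeR's test of that difference, for 10 ligands. On the log2 scale the difference was 6.98 for Cxcl9, 3.46 for Ccl5, 3.21 for Cxcl10, 3.03 for Ccl8, 2.58 for Ccl2, 2.49 for Ccl12, 2.33 for Ccl7, 1.80 for Ccl6, 1.35 for Ccl9 and 0.47 for Cxcl12. Those of Cxcl9, Ccl5, Ccl6 and Ccl9 stayed past the threshold with each bladder left out. Cxcl10 and Ccl2 missed it without middle-aged replicate 5 (3.16 and 2.49), Ccl7 without middle-aged replicate 2 or 5 (2.21 and 2.26), Ccl8 without young replicate 2 or any middle-aged bladder (2.78 to 3.21), and Ccl12 and Cxcl12 without any of 10 bladders each (adjusted p = 0.0546 to 0.124 and 0.053 to 0.101 by edgeR).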

How the results depend on the processing

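Without 1 bladder, the number of ligands called ran from 14 to 17 for untreated old against middle-aged (17 with all), from 0 to 6 for middle-aged against young (4), from 4 to 11 for untreated old against young (8), from 4 to 11 for the late minus early change (10), and stayed at 0 in the 5 gavage comparisons. For untreated old against middle-aged, Ccl17, Cx3cl1, Cxcl16 and Cxcl14 were the ligands whose calls were lost, and the other 13 were called each time. DESeq2 called 1 ligand with D+Q against untreated old bladders, where edgeR called 0.

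The bladders were not treated as paired, since no label says that a number marks a shared origin and no comparison had every pair's correlation over 0.1. Correlations of same-numbered bladders ran from -0.0948 to 0.127 for untreated old against middle-aged by the title numbers, and from 0.0148 to 0.153 by the numbers in the column names, which differ for some bladders. By either numbering 3 of 5 old bladders correlated best with their own number. With the replicate block by title number, 1 ligand was called in middle-aged against young, 14 in untreated old against middle-aged, 9 in untreated old against young and 9 in the late minus early change. A block by column number, added after the data were seen, gave 2, 16 and 6 called ligands for middle-aged against young, untreated old against middle-aged and the late minus early change. With all 6 groups in 1 fit, 2 were called in middle-aged against young.

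None of the ligands that turned direction was called. From young to middle-aged, Ccl11 (0.000727 on the log2 scale) was at -0.00582 with DESeq2, -0.00705 with RLE factors and -0.00832 with all 6 groups, and Ccl8 (-0.09) at 0.15 with the block. With 1 bladder left out, that change ran from -0.34 to 0.82 for Ccl22, -0.12 to 0.99 for Ccl17, -0.10 to 0.12 for Ccl11, -0.26 to 0.14 for Ccl8 and -0.023 to 0.19 for Cxcl14. From middle-aged to old it ran from -0.010 to 0.49 for Cxcl15, -0.065 to 0.063 for Ccl25 and -0.94 to 0.12 for Ccl22. The cause of these shifts was not tested. Depth limits Ccl3, Ccl4 and Xcl1, with 6 to 12 counts per middle-aged bladder. It also limits Cxcl15, with 5 to 19 counts, and Ppbp, with 1 to 13 counts and at or under the floor in 3 of the 5.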
